A study of Mus musculus with 15 samples.

Results

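The array used for these mouse livers carries 1217 probes that bear the names of human long intergenic noncoding RNAs (lincRNAs), spelled humanlincRNA with a number and a plus or minus sign. A probe was kept when the scanner software marked it as well above background on each of the 3 arrays of some stage, a rule that asks for signal and not for a change between stages. It kept 408 of the 1217 probes (33.5%), against 37363 of all 59709 probes (62.6%), 248 of 691 probes with mouse lincRNA names (35.9%) and 1874 of 3457 lincRNA exon probes (54.2%). RNA came from C57BL/6 livers of 5 stages, with 3 arrays each: E12.5, E14.5 and E17.5 fetal liver, neonatal liver and liver of 8-week adults. All samples are whole liver of unmodified animals, so fewer cells of a type and less RNA per cell cannot be told apart. Nothing in the labels says whether replicates were separate or pooled animals, so p-values measure the spread between these samples only, which may be technical.

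LincRNAs are transcripts from between protein-coding genes that are not known to be translated. As a class they are known for lower levels, narrower tissue ranges and faster sequence change between species than mRNAs. The fetal liver is a main site of blood formation, which leaves it around birth, while hepatocytes take on their adult metabolic work. The files pair these probes with no gene, position or sequence. They also do not state whether a probe follows the human transcript or a mouse counterpart, nor whether the plus and minus signs are strands. Each name is therefore used as the label of a probe, and no sequence is printed. Of the 26 liver, blood and other cell markers looked up, 1 had a probe that could be named. It was Tfrc, the transferrin receptor of iron-importing red cell precursors, at 8.89 ± 0.53 (SD, n = 3) on the scale below at E12.5 and 5.50 ± 0.39 in the adult. The markers of hepatocytes could not be checked.

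Signal is given as log2 of the scanner's processed intensity minus the array's own 75th percentile, so 0 is the 75th percentile of the probes on that array. Differences between stages are in log2 units with limma's standard error, and a probe is called where limma's Benjamini-Hochberg adjusted p, over all 37363 probes tested, was below 0.05. The arrays fell into 2 scans, each taken as 1 slide. E12.5, E14.5 and the first 2 replicates of E17.5 shared the first slide. The second carried E17.5 replicate 3, neonatal liver and the adult. Per the file headers, 6 of the 7 second-slide arrays (all but adult replicate 2) went through multiplicative detrending, and no first-slide array did. Stage and slide are therefore tied together for most comparisons, and only E17.5 bridges them. Where slide was added to the fit as a block, its term came from E17.5 replicate 3 against replicates 1 and 2 alone. Between E12.5, E14.5 and E17.5, or neonatal and adult, that fit gives the differences found without replicate 3. From E17.5 to neonatal liver it rests on replicate 3. It cannot part slide from that 1 sample, so a call lost in it is no test of slide. E17.5 replicate 1 stood apart: 55.8% of its negative-control spots were marked well above background, against 4.0% to 9.58% on the other arrays. On first-slide arrays 12 to 45 of the 408 probes sat at the array's lowest value, shared by 1917 to 15983 probes. Such values have no order among themselves. They were -4.96, -5.47 and -5.89 on the E12.5 arrays and -5.47 and -5.26 on E17.5 replicates 1 and 2. Readings below at these values are that floor, so fitted differences and standard errors that use them are not measured sizes.

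The 408 probes were dim. Their median level over the 15 arrays was -2.17, against -0.86 over all probes tested, and 62 of them (15.2%) lay above 0 against 38.9%. The range of their means ran from -4.84 to 6.30. By the same rule 50 of 1200 negative-control spots (4.17%), from 4 of 20 negative-control probes, would have been kept. The dimmest kept probes were humanlincRNA0525-, humanlincRNA0798- and humanlincRNA2296-, whose lowest array in their best stage read -3.62, -3.56 and -3.56. Of the 809 probes left out, 82 passed on 2 arrays of a stage and 295 passed on no array. The brightest of those left out read -3.07 (humanlincRNA0661-), -3.07 (humanlincRNA2361-) and -3.16 (humanlincRNA0883-), so the 2 sides of the rule overlapped in signal. No kept probe was saturated on any array.

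Detection was narrower than over all probes tested, which were brighter, and the 2 sets were not compared at like levels. All 3 arrays of a stage were well above background for 250 of the 1217 probes at E12.5, 320 at E14.5, 232 at E17.5, 260 in neonatal liver and 350 in the adult. Of the 408 kept, 177 (43.4%) passed in all 5 stages, against 62.9% of all probes tested. A single stage carried 63 probes, and 37 of these passed in the adult alone and 23 at E14.5 alone. E12.5 held 2 such probes, E17.5 held 1 and neonatal liver none. Over all probes tested the adult held 1664, E14.5 1010, neonatal liver 582, E12.5 339 and E17.5 82. Negative-control spots passing on all 3 arrays of a stage were also fewest in neonatal liver, at 0.167%, against 2.17% to 3.33% in the other stages. The part of this difference in the neonatal count was not tested. Of the 37 adult probes, 7 were above background on no array of another stage.

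With all arrays, most of the 408 probes had their highest stage mean at E14.5 or in the adult. The adult held the highest mean of 185 probes (45.3%, against 32.4% of all probes tested) and E14.5 that of 131 (32.1% against 20.6%). E12.5 followed with 47 (11.5% against 23.3%) and E17.5 with 33 (8.09% against 7.32%). Neonatal liver was the highest stage for 12 probes (2.94% against 16.4%) and the lowest for 200 (49.0% against 25.4%). Under background correction by normexp, E14.5 was the highest stage of 86 probes, and in the authors' table, which holds 261 of the probes, the adult was that of 98. The 408 include 37 probes kept through the adult alone and 23 through E14.5 alone. Over the 177 probes above background on every array the order differed. There E14.5 held the highest mean of 73 (41.2%, against 21.7% of all probes so measured). The adult held that of 66 (37.3% against 29.4%). The order of stages over the 408 also rested on single arrays. Without E17.5 replicate 3, E17.5 was the highest stage of 105 probes, E14.5 of 94 and the adult of 159. E12.5 was that of 25 without E12.5 replicate 1 and of 89 without E12.5 replicate 3. Neonatal liver was that of 25 without neonatal replicate 3 and of 21 without adult replicate 1.

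**Figure D1:**
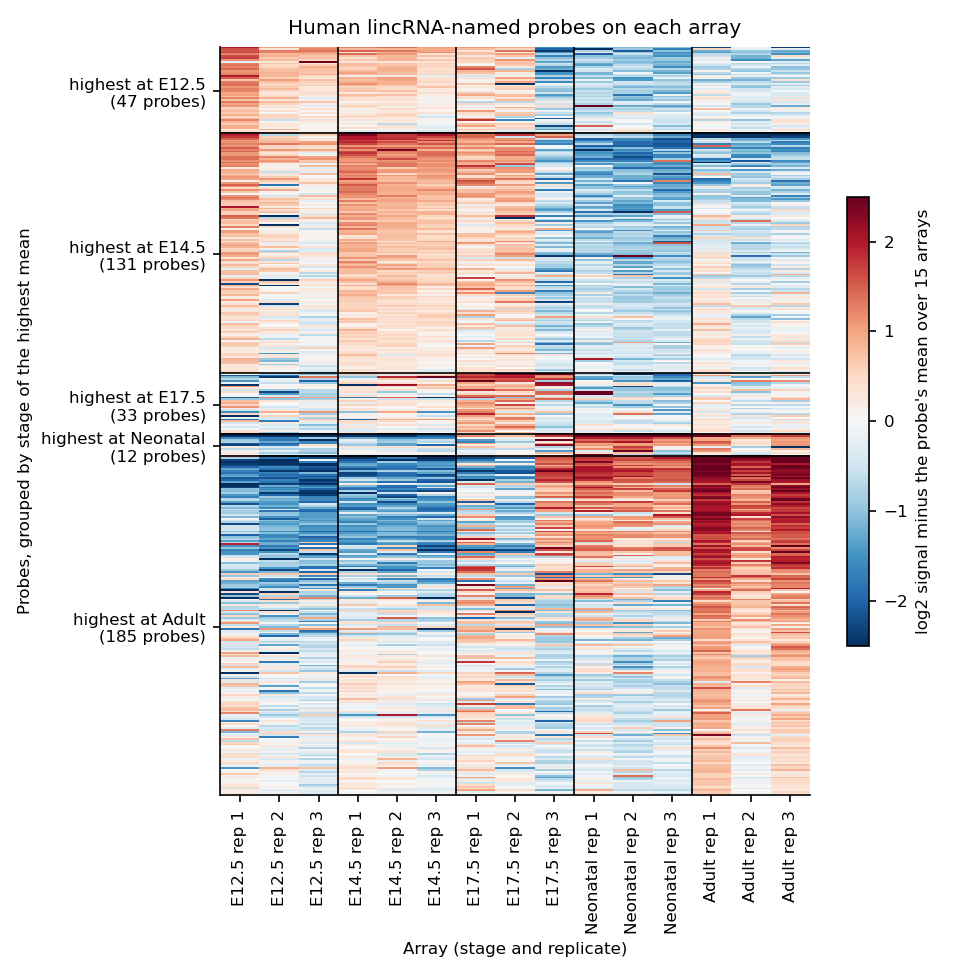
Each row is 1 of the 408 probes and each column 1 of the 15 arrays; colour is log2 signal minus the probe's mean over 15 arrays, and the scale stops at 2.5 either way. Rows are grouped by the stage with the highest mean, 185 probes in the adult and 131 at E14.5, and E17.5 replicate 3 often takes the colour of the neonatal arrays beside it.

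E17.5 replicate 3, the array of that stage on the second slide, differed from the other 2 more in these probes than in the rest. It lay below both others for 267 of the 408 probes (65.4%), against 38.7% of all probes tested. Its median difference from their mean was -0.73, against 0.06. It was nearer the neonatal mean than the mean of the other 2 E17.5 arrays for 338 probes (82.8%), against 62.9% of all probes tested. Correlations between E17.5 arrays over the 408 probes were 0.755 to 0.909, against 0.905 to 0.973 within the other stages. These are descriptions over probes, which are not independent replicates. Stage differences that involve E17.5 depend on which of its arrays is used, and the counts without each are given with the comparison. Whether slide or detrending had a part in these differences was not tested.

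**Figure D2:**
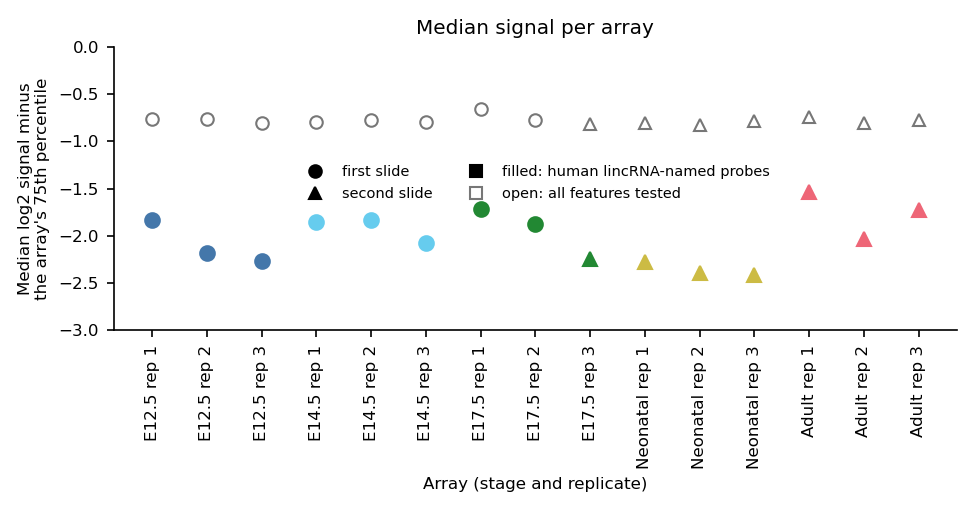
Median log2 signal minus the array's 75th percentile on each of the 15 arrays, for the 408 probes (filled, coloured by stage) and for all 37363 probes tested (open); circles are first-slide and triangles second-slide arrays. The filled median is -2.24 on E17.5 replicate 3, beside -1.72 and -1.87 on the other 2 arrays of the stage, and lowest on the neonatal arrays at -2.28 to -2.42.

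From E12.5 to E14.5 few of the probes moved. Of 408, 3 rose and none fell, where 4.93% of all probes tested were called, 1.82% up and 3.11% down. Of 248 probes with mouse lincRNA names 5 rose and 0 fell. The median difference was 0.20, against -0.01 over all probes tested, and it was -0.04 under normexp. The 3 were humanlincRNA0459+, humanlincRNA1166+ and humanlincRNA1016+. humanlincRNA0459+ read -0.16, -0.31 and -0.87 at E12.5 and 1.09, 0.52 and 0.57 at E14.5. Its groups did not overlap, and the rise of 1.17 ± 0.32 (2.26-fold, limma adjusted p = 0.0484) was just inside the threshold. It was lost without any one of 11 of the 15 arrays. humanlincRNA1166+ was below background on every E12.5 array, at -4.96, -4.74 and -4.94, and read -2.25, -2.66 and -2.87 at E14.5. The fitted rise was 2.29 ± 0.37 (limma adjusted p = 0.00240), and against the lowest signal well above background it was at least 1.44-fold. It was not called under normexp or with signals raised to a negative-control floor. Such a floor fold, here and below, sets the brighter stage against the higher of the dim probe's own signal and the lowest signal well above background on each array. The third, humanlincRNA1016+, stayed below background on all 6 arrays and has no fold.

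Between E14.5 and E17.5 the calls were mostly rises of probes that had been dim. 19 probes rose and 2 fell, in all 21 (5.15%) where 7.11% of all probes tested were called, 6.29% up and 0.814% down. The median over the 408 was -0.19, against -0.06 over all probes tested, but its sign was not stable. It was 0.08 on the first slide alone, and leaving out E17.5 replicate 3 or fitting slide as a block gives the same difference. It was 0.06 with slide as a block without E17.5 replicate 1, and 0.03 under normexp. In the dimmest 136 of the probes 13 rose and none fell, and in the brightest 136 there was 1 rise and 2 falls. Over all probes tested in the same ranges of level, 10.4% of the dim ones rose and 0.227% fell, and 5.46% of the bright ones rose and 1.27% fell. The 13 rises are 9.56% of their 136, so rises of dim probes were about as frequent on the whole array. The balance of rises and falls turned under quantile normalization (5 up, 9 down), in the authors' table (3 up, 5 down), over probes above background on every array (2 up, 3 down) and with slide as a block without E17.5 replicate 1 (5 up, 8 down). It was 17 up and 8 down under normexp and 8 up and 3 down with median centring. Without E17.5 replicate 1, 2 or 3 the calls numbered 23, 40 and 19, and without E14.5 replicate 1, 2 or 3 they numbered 11, 10 and 11.

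humanlincRNA0691+ had the largest fitted rise of that interval among the 408 probes. It read -4.96, -5.47 and -5.89 at E12.5 and -5.77, -5.53 and -4.53 at E14.5, below background on all 6 arrays. The E12.5 readings are the lowest values of those arrays, as is -5.53 at E14.5. At E17.5 it read -1.22, -1.67 and -0.67. In neonatal liver it read 0.22, 0.28 and 0.26, and in the adult -0.02, -1.06 and -0.71. The E17.5 arrays of both slides lay above every earlier array. The fitted rise was 4.09 ± 0.38 (limma adjusted p = 1.87e-05), or at least 4.60-fold, and it was the only one of the 21 calls that was kept under every alternative that could be fitted. A further rise to neonatal liver was 1.44 ± 0.38 (2.71-fold, limma adjusted p = 0.0199), a call lost with slide as a block and without E17.5 replicate 1 or 2 or neonatal replicate 2 or 3.

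Other probes rose in smaller steps. humanlincRNA1422+ read -2.45, -1.71 and -2.59 at E14.5 and -0.84, -0.80 and -0.57 at E17.5. Its rise was 1.51 ± 0.29 (2.85-fold, limma adjusted p = 0.00509). humanlincRNA0367- read -1.44, -1.68 and -1.80 at E14.5 and -0.16, -0.37 and 0.07 at E17.5, a rise of 1.48 ± 0.25 (2.80-fold, limma adjusted p = 0.00249). In both the groups were apart, and in both the call was lost with median centring, on the first slide alone and with slide as a block without E17.5 replicate 1. humanlincRNA1050+ rose by 1.16 ± 0.24 (2.23-fold, limma adjusted p = 0.0107). That call was lost on the first slide alone, under quantile normalization, and without E14.5 replicate 1 or 3, among others. The 2 falls were humanlincRNA1995-, from 3.79, 3.57 and 3.22 to 2.22, 2.13 and 2.19, and humanlincRNA0955+, from 1.36, 1.38 and 1.26 to 0.37, 0.17 and 0.24. Neither group overlapped, but each call was lost without any single E14.5 or E17.5 array.

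Around birth the probes fell more than they rose. From E17.5 to neonatal liver 15 rose and 60 fell, together 75 of 408 (18.4%), where 18.1% of all probes tested were called. The falls took 14.7% of the probes against 9.66% of all tested, and the rises 3.68% against 8.4%. In the dimmest, middle and brightest 136 the falls took 6.62%, 16.2% and 21.3%. All probes in the same ranges of level gave 8.99%, 9.63% and 10.5%, so falls were not more frequent in the dimmest range. The median difference was -0.40, against 0.00 over all probes tested. Median centring gave 17 rises and 37 falls. The count depended on E17.5 replicate 3. Without it 193 were called (44 up, 149 down) and the median was -0.71. With slide as a block 14 (6 up, 8 down) were called, of which 8 were among the 75. On the second slide alone, with that array as the only E17.5 sample and assumed to vary like the others, 11 were called (4 up, 7 down) and the median was 0.02. Without E17.5 replicate 1 or 2 there were 38 and 28 calls, and without neonatal replicate 2 or 3 there were 40 and 37.

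**Figure D3:**
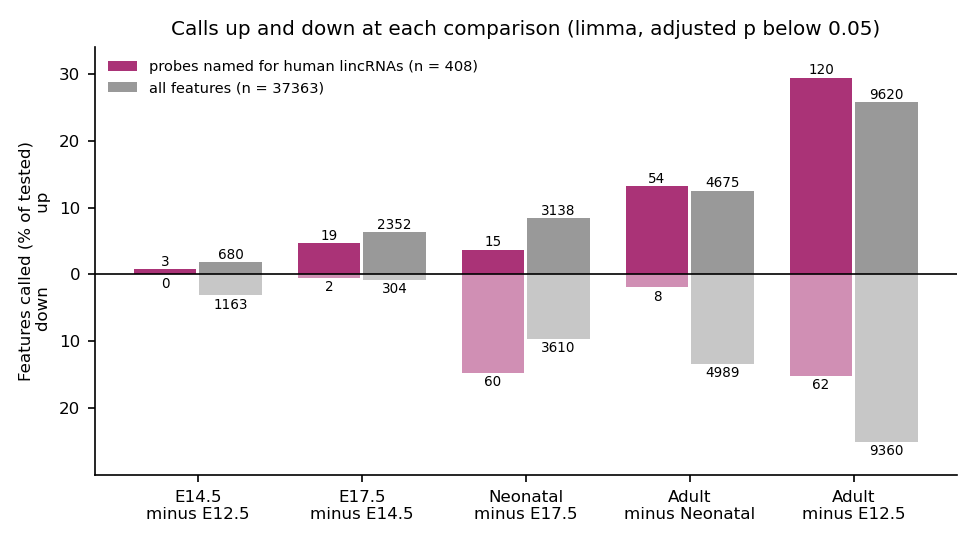
Share of probes called up (above 0) and down (below 0) at each comparison, for the 408 human lincRNA-named probes and all 37363 probes tested, with the number called at each bar (limma, adjusted p below 0.05). The birth interval has 60 falls to 15 rises among the 408, and the interval from neonatal to adult has 54 rises to 8 falls, while all probes tested are near balance in both.

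humanlincRNA0111+ had the largest fall at birth among probes measured on both sides. It read 3.94, 4.63 and 4.73 at E17.5. Neonatal liver gave 1.53, -1.13 and 0.29 and the adult 2.46, 1.89 and 2.03. The E17.5 arrays lay above all others and the second-slide array of that stage was the highest of them. The fall was 4.20 ± 0.52 on the log2 scale (18.4-fold, limma adjusted p = 0.000159) and was called under every alternative. The probe then rose by 1.90 ± 0.52 to the adult (3.73-fold, limma adjusted p = 0.0151), a call lost without neonatal replicate 2 or adult replicate 1. humanlincRNA1422+ went back to -3.79, -3.22 and -3.61 in neonatal liver, where 1 of 3 arrays was above background. Its fall from E17.5 was 2.80 ± 0.29 on the log2 scale (limma adjusted p = 3.60e-05), called under every alternative that could be fitted.

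humanlincRNA0970- was bright in all fetal stages. It read 4.67, 3.92 and 3.65 at E12.5. The E14.5 arrays gave 5.23, 5.10 and 5.08, those of E17.5 4.43, 4.96 and 3.98. It then dropped to 1.62, 2.03 and 0.08 in neonatal liver and to 0.08, -0.71 and -0.26 in the adult. No fetal array overlapped a later one. The fall at birth was 3.21 ± 0.45 on the log2 scale (9.28-fold, limma adjusted p = 0.000382), not called on the second slide alone. From E12.5 to the adult it fell by 4.38 ± 0.45 on the log2 scale (20.9-fold, limma adjusted p = 2.24e-06), and that call was kept under every alternative. humanlincRNA1505+ fell by 2.93 ± 0.87 at birth (7.61-fold, limma adjusted p = 0.0335). Its earlier arrays were uneven, from -3.74 to -0.04 at E12.5 and from -2.34 to 1.17 at E14.5, and the call was lost without E17.5 replicate 1 or 2 or any neonatal array.

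Probes that left the measured range at birth included humanlincRNA2046- and humanlincRNA0183-. humanlincRNA2046- read -0.85, -0.82 and -2.48 at E17.5 and -3.99, -3.57 and -4.14 in neonatal liver, below background there on all 3 arrays. It fell by at least 4.02-fold (limma adjusted p = 0.00158). humanlincRNA0183- read -1.86, -2.04 and -2.88 at E17.5 and -3.84, -3.61 and -3.52 in neonatal liver. It fell by at least 2.19-fold (limma adjusted p = 0.00575) and was measured again on all 3 adult arrays, at -3.03, -2.88 and -2.50. In both the E17.5 array of the second slide was the lowest of its stage, and neither fall was called with slide as a block.

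Few probes rose at birth. humanlincRNA0367- went from its E17.5 level to 1.74, 1.75 and 1.42, a rise of 1.79 ± 0.25 (3.46-fold, limma adjusted p = 0.000428) that was called under every alternative. humanlincRNA0324- read 2.46, 3.13 and 4.37 at E17.5 and 5.88, 6.14 and 5.33 in neonatal liver. Its rise was 2.46 ± 0.44 (5.51-fold, limma adjusted p = 0.00199). humanlincRNA2274- read -2.00, -2.51 and -0.24 at E17.5 and 0.70, 0.26 and 0.07 in neonatal liver, a rise of 1.93 ± 0.49 (3.80-fold, limma adjusted p = 0.0166). In these last 2 probes the groups did not overlap, and the E17.5 array of the second slide lay between the other E17.5 arrays and the neonatal ones. Both calls were lost with slide as a block, and that of humanlincRNA2274- also without E17.5 replicate 1 or 2 or neonatal replicate 1. humanlincRNA0220+ was below background on all fetal arrays and read -2.36, -2.21 and -2.46 in neonatal liver, at least 1.68-fold above E17.5 (limma adjusted p = 0.00786). It was not called with slide as a block or under normexp.

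**Figure D4:**
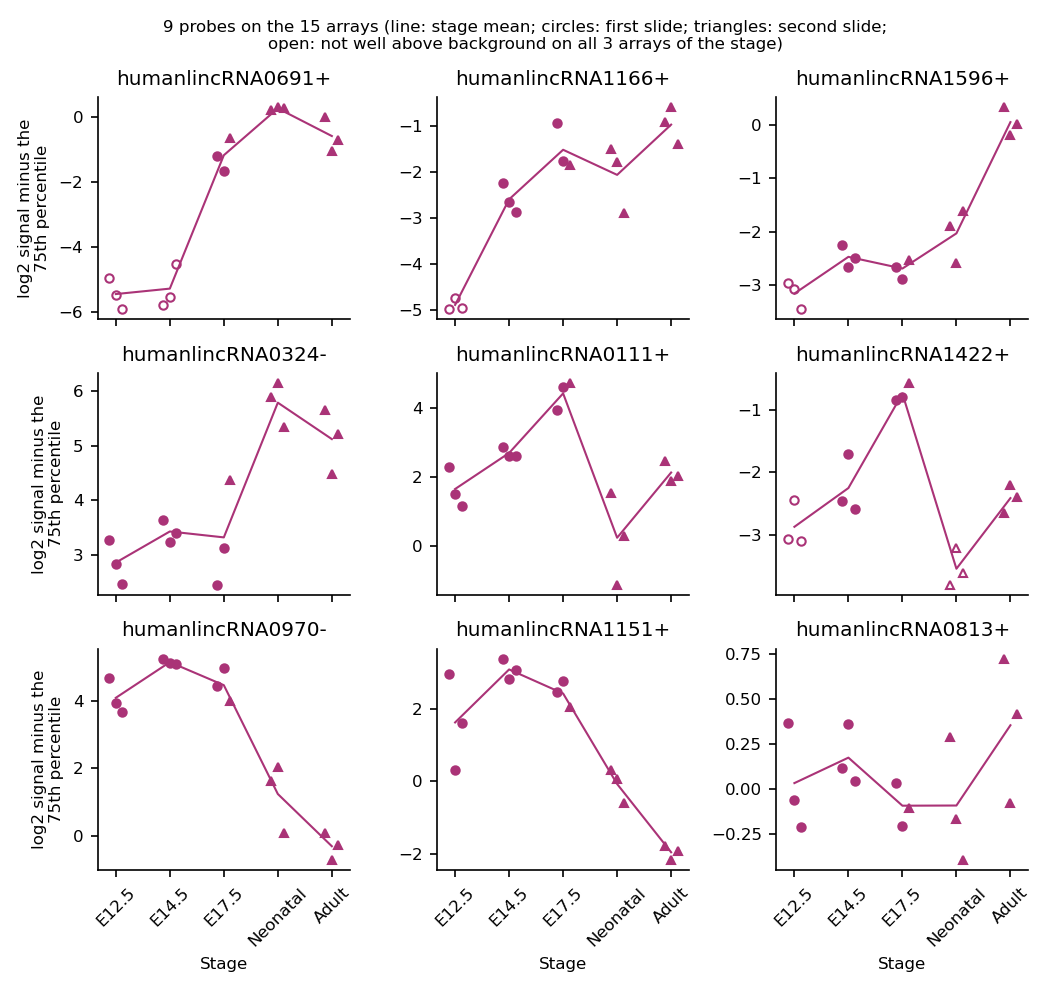
Log2 signal minus the 75th percentile for 9 probes on the 15 arrays; points are arrays (circles first slide, triangles second slide, open where fewer than 3 arrays of the stage were well above background) and lines join stage means, with a separate vertical scale in each panel. humanlincRNA0691+ climbs from below background before E17.5, humanlincRNA0111+ and humanlincRNA1422+ peak at E17.5, humanlincRNA0970- and humanlincRNA1151+ drop after it, and humanlincRNA0813+ stays between -0.40 and 0.72.

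From neonatal to adult liver the direction turned. 54 probes rose and 8 fell, 62 of 408 (15.2%) where 25.9% of all probes tested were called. Rises took 13.2% of the probes, about the share over all probes tested (12.51%, 4675 of 37363). Falls took 1.96% against 13.4%, so over all levels together the shares differed mainly in the falls. The median difference was 0.60, against 0.17 over all probes tested, and 348 of the 408 had a higher mean in the adult. Under normexp the median was 0.35. In the main fit the medians were 0.62, 0.65 and 0.51 in the dimmest, middle and brightest 136 probes. All probes within the same ranges of level gave 0.45, 0.28 and 0.06. Rises took 9.56%, 20.6% and 9.56% of the members, against 12.6%, 11.1% and 13.5% of all probes in these ranges. Falls took 1.47%, 0.735% and 3.68%, against 7.03%, 8.96% and 16.8%. The brightest range, from -1.53 to 6.30, took in 21025 probes, so levels within it were not matched. Both stages lay wholly on the second slide, where 108 were called alone (100 up, 8 down). Adult replicates 1 and 3 had lower 75th percentiles (162 and 145) than adult replicate 2 (232) and the neonatal arrays (213 to 241). Their medians over the 408 probes were -1.53 and -1.72, against -2.03 on adult replicate 2. With adult replicate 2 as the only adult array, assumed to vary like the other stages, 3 rose and none fell, and the median was 0.22. That array is also the adult one without detrending, set against detrended neonatal arrays. Without adult replicate 1 or 3 there were 25 and 33 calls, without neonatal replicate 2 or 3 there were 25 and 34, and without E17.5 replicate 3 there were 104. Whether the scaling level or the detrending had a part in the adult rise was not tested.

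The steadiest adult rises were those of humanlincRNA0289+ and humanlincRNA1596+. humanlincRNA0289+ read -2.79, -2.84 and -1.54 in neonatal liver and 0.49, 0.01 and 0.02 in the adult, a rise of 2.56 ± 0.45 (5.89-fold, limma adjusted p = 0.000764). Its fetal arrays of the first slide lay between -1.60 and -1.04. humanlincRNA1596+ read -1.90, -2.59 and -1.61 in neonatal liver and 0.34, -0.19 and 0.03 in the adult, a rise of 2.10 ± 0.28 (4.27-fold, limma adjusted p = 6.49e-05). In both the adult arrays lay above all other arrays, and these 2 calls of the 62 were kept under every alternative that could be fitted. humanlincRNA1627+ was below background in neonatal liver, at -3.33, -3.71 and -4.44, and read -0.86, -1.39 and -1.46 in the adult, at least 4.44-fold higher (limma adjusted p = 0.00440). humanlincRNA1283+ followed the same course, from -3.77, -3.46 and -4.38 to -2.22, -2.01 and -1.92, at least 2.53-fold higher (limma adjusted p = 0.00471).

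14 probes (3.43%) were called down at birth and up again to the adult, where 1.84% of all probes tested were. Among them were humanlincRNA0111+, humanlincRNA0183-, humanlincRNA1283+ and humanlincRNA1422+. In 40 of the 408 (9.80%) every neonatal array lay below every E17.5 and adult array, as it did in 6.35% of all probes tested. The neonatal arrays stand in both differences, so a low neonatal mean alone moves them in opposite directions.

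The falls to the adult were few. humanlincRNA1151+ read 3.37, 2.81 and 3.07 at E14.5. Neonatal liver gave 0.33, 0.06 and -0.60 and the adult -1.78, -2.18 and -1.91. Its last fall was 1.88 ± 0.50 on the log2 scale (3.69-fold, limma adjusted p = 0.0132), and it was lost without neonatal replicate 1. humanlincRNA0998+ read 1.15, 1.41 and 1.08 in neonatal liver and -0.57, -0.17 and -0.88 in the adult. It fell by 1.75 ± 0.56 on the log2 scale (3.37-fold, limma adjusted p = 0.0332), and the call was lost without any neonatal array or without adult replicate 1 or 3. humanlincRNA0970- fell further by 1.54 ± 0.45 on the log2 scale (2.91-fold, limma adjusted p = 0.0213), with groups that touched at 0.08 and a call lost without neonatal replicate 1 or 2 or adult replicate 2 or 3.

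Over the whole course, adult against E12.5, rises outnumbered falls. 120 probes rose and 62 fell, 182 of 408 (44.6%) where 50.8% of all probes tested were called. Rises took 29.4% against 25.7% of all tested and falls 15.2% against 25.1%. Of probes with mouse lincRNA names 26.2% rose and 16.1% fell. Of the 120 rises, 60 were of probes above background on no E12.5 array. Of the 62 falls, 12 were of probes above background on no adult array. Among calls measured on all 3 arrays of both stages, 32 were rises and 35 falls. The kept probes include 37 that passed in the adult alone and 2 at E12.5 alone. The median was 0.29 against -0.04, and it was 0.90 with slide as a block and -0.02 with adult replicate 2 as the only adult array. Over the 177 probes above background on every array, a set that leaves out probes silent at either end, 31 rose and 32 fell. In the authors' table, whose probes were all above background on at least 12 arrays, the calls were 50 up and 50 down. E12.5 lies on the first slide and the adult on the second, and with slide as a block 94 were called (89 up, 5 down), of which 50 were among the 182. A change across the 5 stages was called by limma's F test for 227 probes (55.6%), where 61% of all probes tested were. It was called for 55.6% of probes with mouse lincRNA names and 59.8% of lincRNA exon probes.

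humanlincRNA0965+ showed how far E17.5 arrays could part. It read -2.04, -2.10 and -1.81 at E12.5. The E17.5 arrays gave -1.43, -1.65 and 1.64, neonatal liver 2.26, 1.34 and 1.53, and the adult 2.28, 1.44 and 2.70. The second-slide E17.5 array sat among the neonatal values. The rise from E12.5 to the adult was 4.12 ± 0.65 (17.4-fold, limma adjusted p = 0.000132), and 0.84 with slide as a block without E17.5 replicate 1, where it was not called. humanlincRNA2274- rose by 3.28 ± 0.49 (9.70-fold, limma adjusted p = 8.34e-05) and humanlincRNA2397+ by 2.93 ± 0.77 (7.62-fold, limma adjusted p = 0.00564). The E12.5 arrays of the latter read -0.35, -0.60 and 1.22. humanlincRNA0219+, below background at E12.5, read 0.11, -0.65 and 0.14 in the adult, at least 7.92-fold higher (limma adjusted p = 0.000190). On the second-slide E17.5 array it read -1.56, against -5.47 and -5.26 on the others, which are the lowest values of those arrays. None of these 4 rises was called with slide as a block. humanlincRNA0117+, below background on every E12.5 array, read 0.12, -0.90 and 0.05 in the adult, at least 7.34-fold higher (limma adjusted p = 1.30e-05), a call lost with slide as a block without E17.5 replicate 1.

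The falls over the whole course were led by humanlincRNA0970-. humanlincRNA1151+, at 2.96, 0.31 and 1.60 at E12.5, fell by 3.58 ± 0.50 on the log2 scale (11.9-fold, limma adjusted p = 4.25e-05), a call lost with slide as a block without E17.5 replicate 1 (limma adjusted p = 0.0655). humanlincRNA1016- read 0.47, -0.52 and -0.66 at E12.5 and -2.64, -2.69 and -2.75 in the adult, a fall of 2.46 ± 0.37 (5.50-fold, limma adjusted p = 8.65e-05) that was not called with slide as a block. humanlincRNA2338- and humanlincRNA1808+ were measured on all E12.5 arrays and below background on all adult ones. They fell by at least 3.56-fold (limma adjusted p = 0.00662) and at least 3.49-fold (limma adjusted p = 0.0111). With slide as a block their fitted differences were 0.74 and 0.13, of the opposite sign. Under every alternative that could be fitted 16 of the 182 calls were kept, 13 rises and 3 falls. The 3 falls were humanlincRNA0970-, humanlincRNA0381+ (by 3.48 ± 0.52 on the log2 scale) and humanlincRNA2438+ (by 1.25 ± 0.27). humanlincRNA2438+ read 6.13, 5.63 and 5.56 at E12.5 and 4.74, 4.40 and 4.45 in the adult. The rises included humanlincRNA0691+, humanlincRNA1166+ and humanlincRNA1596+.

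Some probes moved little. Among probes above background on every array, humanlincRNA1485-, humanlincRNA1597- and humanlincRNA0813+ had the smallest ranges of stage means, at 0.28, 0.34 and 0.45. Their limma adjusted p over 5 stages was 0.928, 0.907 and 0.471. They were chosen for this small range, and with 3 arrays a stage smaller changes could not be seen.

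Of 609 lincRNA numbers, 608 had both a plus and a minus probe. In 80 both probes were kept, in 248 only one was (130 plus, 118 minus) and in 280 neither. Signal on one sign without the other was common, where 33.5% of the 1217 probes were kept. In 90 of the 248 the other probe was above background on no array. Of all 809 probes left out 295 were, about the same share. In 40 of those 90 pairs the kept probe was above background on all 15. Plus and minus probes were kept at like rates, 210 and 198. In 24 of the 80 pairs both probes had their highest mean in the same stage. Unrelated probes would also share a stage at times, as 45.3% of all kept probes were highest in the adult and 32.1% at E14.5. The median correlation over the 15 arrays was 0.23 within pairs, against 0.21 for kept probes paired without regard to number. The adult and E12.5 difference was called in the same direction for both probes of 9 pairs and in opposite directions for 7. It was called for one probe in 38 pairs and for neither in 26. Neither the shared stages nor these calls were counted for probes of different numbers, so whether the pairs differ from such probes in them was not tested.

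**Figure D5:**
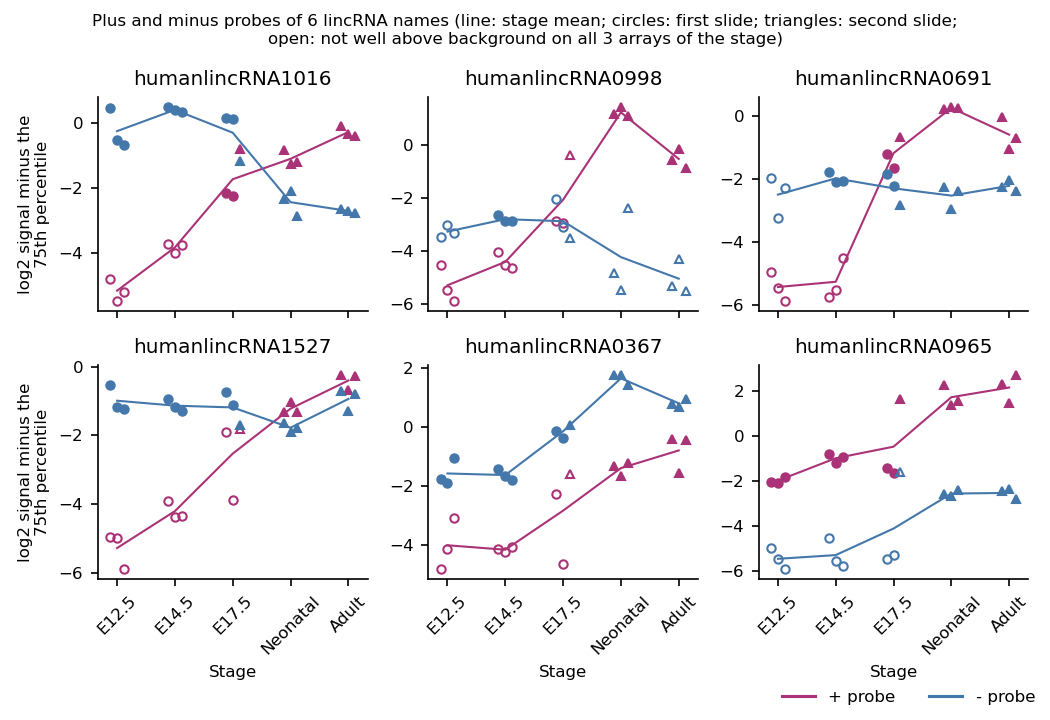
Log2 signal minus the 75th percentile of the plus (purple) and minus (blue) probes of 6 lincRNA numbers; points are arrays (circles first slide, triangles second slide, open where fewer than 3 arrays of the stage were well above background) and lines join stage means. The probes of humanlincRNA1016 go opposite ways. In humanlincRNA0998 the plus probe climbs to neonatal liver, while the minus probe was well above background on all 3 arrays at E14.5 alone. Both probes of humanlincRNA0367 and of humanlincRNA0965 end above E12.5. In humanlincRNA0691 and humanlincRNA1527 the plus probe climbs from below background. Their minus probes stay between -3.25 and -1.79 and between -1.90 and -0.55.

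The pair humanlincRNA1016 had a called rise on one probe and a called fall on the other. humanlincRNA1016+ read -4.79, -5.47 and -5.19 at E12.5. The E17.5 arrays gave -2.14, -2.24 and -0.77, neonatal liver -0.83, -1.26 and -1.18, and the adult -0.07, -0.33 and -0.39. It rose by at least 3.18-fold from E14.5 to E17.5 (limma adjusted p = 0.00186), a call lost under quantile normalization. From E12.5 to the adult it rose by at least 7.23-fold (limma adjusted p = 5.02e-08), a call kept under every alternative that could be fitted. The minus probe, given above, fell at birth by 2.14 ± 0.37 on the log2 scale (4.41-fold, limma adjusted p = 0.00164), a call lost with slide as a block. Its second-slide E17.5 array, at -1.15, lay below the other 2 at 0.18 and 0.12.

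In the pair humanlincRNA0998 the plus probe read -4.52, -5.47 and -5.89 at E12.5, below background, and rose to the neonatal values given above. Its adult level was at least 5.97-fold over E12.5 (limma adjusted p = 8.63e-06), called under every alternative that could be fitted. The minus probe was above background on all 3 arrays at E14.5 alone, at -2.66, -2.88 and -2.88. It was kept through that stage, so a high E14.5 mean is not independent of the rule. Its adult arrays, below background, read -5.34, -4.31 and -5.49. Its change over the 5 stages (limma adjusted p = 0.0234) was lost under normexp, with the negative-control floor, with slide as a block and without adult replicate 1 or 3.

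In 2 further pairs the plus probe rose from below background over the whole course while the minus probe had no called change across the 5 stages. In the pair humanlincRNA0691 the minus probe read between -3.25 and -1.79 on all 15 arrays (limma F test adjusted p = 0.547), beside the rise of the plus probe. In the pair humanlincRNA1527 the plus probe read -4.96, -5.00 and -5.89 at E12.5 and -0.24, -0.69 and -0.28 in the adult, at least 6.56-fold higher (limma adjusted p = 8.89e-07). The minus probe read between -1.90 and -0.55 on all arrays (limma F test adjusted p = 0.105), which became 0.0340 without E17.5 replicate 3. From neonatal to adult liver alone it rose by 0.84 ± 0.29 (1.79-fold, limma adjusted p = 0.0464), a call lost without any one of 11 of the 15 arrays. The plus probe was not called over that interval.

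In humanlincRNA0367 and humanlincRNA0965 both probes rose from E12.5 to the adult. humanlincRNA0367- rose by 2.38 ± 0.25 from E12.5 to the adult (5.19-fold, limma adjusted p = 3.43e-06). Within that course it was highest in neonatal liver and fell by 0.85 ± 0.25 on the log2 scale to the adult (1.80-fold, limma adjusted p = 0.0247), a call lost without neonatal replicate 1 or 2 or adult replicate 1 or 2. humanlincRNA0367+ read -4.82, -4.14 and -3.09 at E12.5 and -0.41, -1.57 and -0.44 in the adult, a fitted rise of 3.21 ± 0.63 (limma adjusted p = 0.000775). With slide as a block neither this rise nor the change over the 5 stages was called (F test, limma adjusted p = 0.648). humanlincRNA0965-, below background at E12.5, read -2.43, -2.35 and -2.80 in the adult, at least 1.51-fold higher (limma adjusted p = 0.00512), a call also lost with slide as a block.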

How the data were processed

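Spot intensity values on a linear scale were deposited as scanner output, 1 file an array. Per the labels' protocols, RNA was extracted with TRIzol, depleted of ribosomal RNA and made into random-primed Cy3 cRNA. Per the file headers, the intensity was background-subtracted and detrended by Feature Extraction 11.0.1.1 and the grid was built on mm9; the submitters' processing notes name version 10.7.3.1. The authors' deposited log2 table, used as an alternative, holds 261 of the 408 probes. Its normalization is not given in the sources used here. Its order of probes matched the scanner values (lowest Spearman 1 over 15 arrays) and its column medians were 7.80 to 7.89, so the log2 scale is read from the values, with each probe's level not centred.

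Outlier spots were left out, spots of a probe averaged, and log2 of the processed signal taken minus each array's 75th percentile over noncontrol probes. limma 3.58.1 in R 4.3.3 (lmFit, eBayes) fitted 1 mean per stage over 15 arrays to all 37363 probes above background on all 3 arrays of a stage, with p-values adjusted per comparison. The script was tested on simulated data. The members and lists were chosen with earlier results of these data known. Named probes were, per comparison and direction, the 3 with the largest called change among those with stages that did not overlap and were measured on both sides, the 2 with the largest bound, the 3 with the smallest range of stage means, and 5 pairs of plus and minus probes with the smallest F test p-values. humanlincRNA0965-, humanlincRNA0381+ and humanlincRNA2438+ were named after their values were seen. The normexp alternative (offset 50) used the median signal and median background. Slide blocks, single slides, quantile normalization, median centring, filters, floors, left-out arrays and replicate blocks were the other alternatives; the single adult array and the slide block without E17.5 replicate 1 were added after seeing the data. The number of arrays limits the precision.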

Additional observations from a re-analysis of the deposited data

How the results depend on the processing

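The counts of calls are those of limma at an adjusted p below 0.05. From E12.5 to E14.5 the main count of 3 became 6 under normexp, 1 with median centring, the negative-control floor, no filter, the filter asking for every array, or adult replicate 2 alone, and 9 with slide as a block, with or without E17.5 replicate 1. From E14.5 to E17.5 the 21 became 11 with median centring or the negative-control floor, 13 with no filter and 6 on the first slide alone. The sign of the balance turned under quantile normalization (14), in the authors' table (8), with the filter asking for every array (5) and with slide as a block without E17.5 replicate 1 (13). From E17.5 to neonatal liver the 75 became 46 with no filter, 47 with the filter asking for every array, 14 with slide as a block (13 without E17.5 replicate 1) and 11 on the second slide alone. From neonatal to adult liver the 62 became 32 with no filter, 41 with the filter asking for every array, 104 with slide as a block (110 without E17.5 replicate 1), 108 on the second slide alone and 3 with adult replicate 2 alone. From E12.5 to the adult the 182 became 100 in the authors' table, 94 with slide as a block (73 without E17.5 replicate 1) and 82 with adult replicate 2 alone, and the balance turned with the filter asking for every array (67). The 227 calls of the F test became 145 in the authors' table, 109 with the filter asking for every array and 110 with slide as a block (105 without E17.5 replicate 1). The filter and the authors' table leave fewer probes to be called; the cause of the other moves was not tested. Without 1 array at a time the counts ran from 1 to 10, 10 to 40, 28 to 193, 25 to 104 and 148 to 204 in the same order, and from 193 to 284 for the F test. humanlincRNA2338- and humanlincRNA1808+ turned sign from E12.5 to the adult with slide as a block (0.74 and 0.13) and again without E17.5 replicate 1 (1.25 and 0.41). Of 134 alternative medians over the 408 probes 19 moved by more than the spread between arrays, and of 105 alternative counts of highest stages 16 moved by over 1.5 times. Of 933 alternatives to 36 named results, 807 kept the call, 122 lost it and 4 turned it. With the replicate block the counts were 3, 23, 85, 69, 189 and 236, and no count of calls moved by over 1.5 times. The numbers do not pair the samples: 7 of 30 same-numbered pairs correlated over 0.1 (median 0.014), and 7 of 15 arrays correlated best with their own number. Low signal over background limits what can be seen in the dim probes, whose folds are bounds.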
